A study of Mus musculus with 5 samples.

Results

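Integrins are the receptors through which cells hold on to the extracellular matrix, and 10 integrin subunit genes were followed while mouse embryonic fibroblasts (MEFs) were cultured in 5C medium. The genes were taken from a given list of names and comprise 8 alpha subunits (Itga1, Itga3, Itga4, Itga5, Itga6, Itga7, Itga8 and Itgav) and 2 beta subunits (Itgb1 and Itgb3). They are 10 of the 27729 genes in the data and 10 of the 26 integrin subunit genes of the mouse, of which 18 are alpha and 8 are beta subunits. All 10 reached 10 expected counts in at least 1 library, as did 13346 genes in all, which are called the tested genes here.

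An integrin is a pair of an alpha and a beta subunit that spans the cell membrane. The alpha subunit largely sets which matrix protein is bound, and the beta subunit carries the tail that talin and kindlin bind when the receptor is switched on and that links it to the actin cytoskeleton. Itgb1 is the partner of most alpha subunits. Itga5, Itga8 and Itgav recognise the RGD motif of fibronectin, vitronectin, osteopontin or nephronectin. Itga3, Itga6 and Itga7 bind laminins of basement membranes, Itga1 binds collagens, and Itga4 binds VCAM1 and fibronectin. Fibroblasts are known for fibronectin receptors, whereas Schwann cells and muscle cells, which lie on basement membranes, are known for laminin receptors.

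Total RNA of ICR strain MEFs was sequenced at the start (day 0) and after 2, 5, 10 and 14 days in the defined medium, to follow gene expression during a conversion towards neuron-like cells. Each time point had a single library, so differences over time lack replicates and could not be tested. All groups share the same starting cells, which the study cultured from whole embryos without head and inner organs and which therefore need not be a single cell type. The day 0 cells were kept in serum medium and the other cells in 5C medium without serum, so time and medium cannot be told apart in any comparison with day 0. The labels call the medium 6C, and their treatment text names a slightly later last day than the label of the last library, which was used here. RNA was taken from whole wells, and in such bulk samples fewer cells of a type and less RNA per cell cannot be told apart.

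The expected counts, RSEM's estimates of the reads from each gene, gave libraries of 2253748 (day 2) to 3890334 (day 0) counts. A normalized count is the expected count divided by the relative effective size of its library, which was 1.01, 0.553, 1.14, 1.40 and 1.12 from day 0 to day 14. A log2 change is the log2 ratio of normalized counts plus 1, and its 95% counting interval is the exact Clopper-Pearson interval of the 2 counts, which covers counting error only. Changes over 2-fold are called, and only these are described as rises or falls. Markers of the labelled cell type were present throughout, as all 10 fibroblast markers were above 0 in each library and their summed normalized count ran from 54104 to 103020. Of these markers 3 were over 2-fold above day 0 on each later day, and 2, 3, 4 and 3 were below on days 2, 5, 10 and 14. Of all tested genes 15.2% to 28.7% were above and 13.1% to 22.3% below. The day 2 library stood apart by its depth and by the 4.79% of its counts that came from Gm42418, against 0.109% or less in the other libraries. The size of a change also depended on the scaling, since the median tested gene moved by 0.14 on day 10 in normalized counts and lay 0.95 higher when the deposited TPM values were compared.

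The integrin subunits did not all move in the same direction (see the plot of normalized counts by day). On day 14 Itga7 had risen 40.6-fold from day 0, while Itga3, which binds the same class of ligand, had fallen 5.65-fold. Itga4, Itga6 and Itga1 were highest on day 10 and lower on day 14, and Itgb3 rose on day 2 and was lower at each later time point. Itga5 had fallen 2.68-fold by day 10. Itgb1 fell 2.87-fold by day 2 and was called at no later time point.

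**Figure D1:**
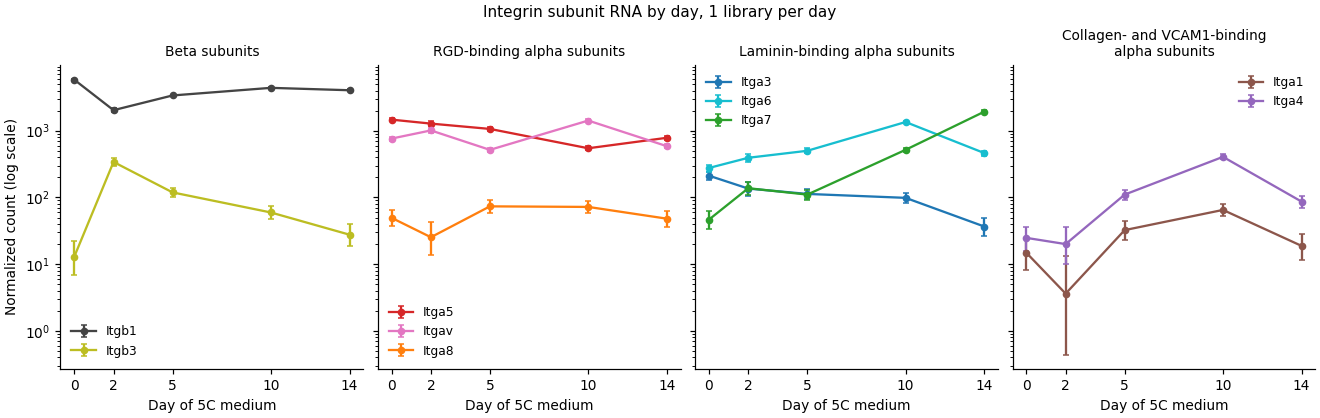
Normalized counts (log axis) of the 10 integrin subunits against the day of 5C medium, with 1 library per day and bars for the 95% counting interval of each value. Itga7 climbed from 46.5 to 1927, Itga6, Itgav, Itga4 and Itga1 were highest on day 10, and Itgb3 was highest on day 2.

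The counts of called members stood against a background in which many genes moved. On day 2, 2 of 10 members were over 2-fold above day 0, where 15.2% of all tested genes were, and 2 were over 2-fold below it, where 13.1% were. On day 5, 4 members were above (20.2% of tested genes) and 0 below (13.6%). On day 10, 5 members were above (28.7%) and 2 below (22.3%). In the length classes that hold the members (described below), 30.7% to 51.5% of genes were above and 5.39% to 13.1% below. On day 14, 3 members were above (24.5%) and 1 below (19.9%). Over 4-fold above day 0 were 1, 2, 5 and 1 members at the 4 time points, against 5.36%, 8.7%, 13.9% and 11.7% of tested genes. Over 4-fold below it were 0, 0, 0 and 1 members, against 2.92%, 2.78%, 7.92% and 6.11%. The medians of the 10 members were -0.25, 0.71, 1.48 and 0.14 on the log2 scale on days 2, 5, 10 and 14, and those of all tested genes were -0.03, 0.05, 0.14 and 0.07.

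These counts can be read in both directions only with the scaling in mind. In normalized counts 53.7%, 59.6%, 56.3% and 55.2% of the called genes were above day 0 on days 2, 5, 10 and 14. With the deposited TPM values the shares were 36.0%, 88.9%, 88.6% and 85.6%, and with total counts 48.3%, 79.1%, 73.1% and 70.4%. For this reason the scalings under which a member's direction turns are given beside the member.

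**Figure D2:**
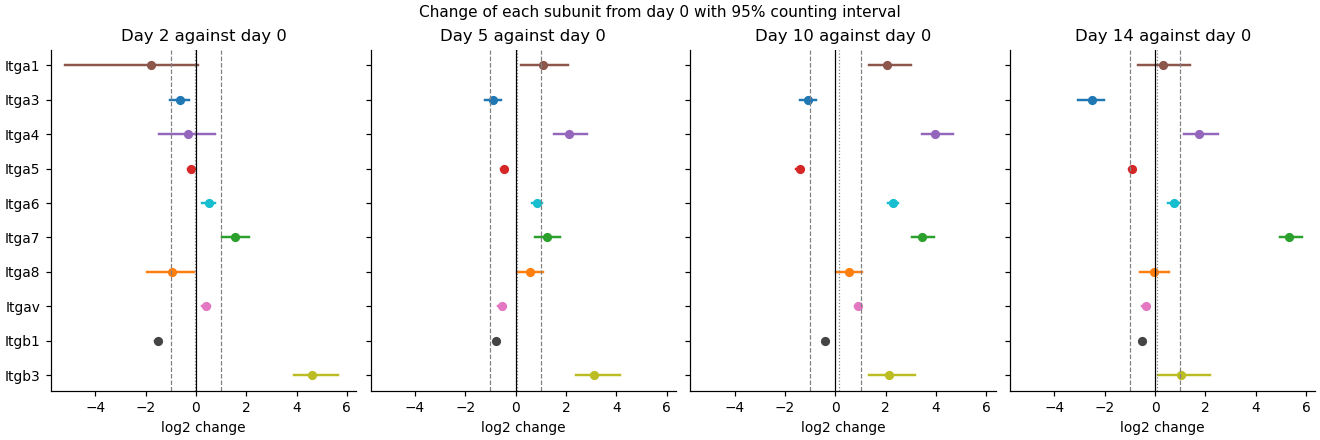
Log2 change of each of the 10 subunits against day 0 (x axis) on days 2, 5, 10 and 14, with the 95% counting interval as a bar, dashed lines at the 2-fold threshold and a dotted line at the median of all tested genes. The widest interval is that of Itga1 on day 2, which rests on 2 counts, and the point farthest to the right is Itga7 on day 14 at 5.34.

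The genes lie on 6 chromosomes of GRCm38, the reference equivalent of the mm10 build to which the reads were aligned. Upstream sequence from RefSeq (GRCm38.p6) was at hand for 7 of the 10. Of these, Itga4 and Itga1 were the only members over 2-fold above day 0 on day 10. Itga5 fell, and Itgb1 had the most counts of the members in every library. The 250 bases before the start site are shown for Itga4, Itga1, Itga5 and Itgb1. They are written from 5′ to 3′ on the strand of the gene, and capitals mark matches to the motifs named below on either strand.
Itga4, chr2:79255176-79255425, + strand: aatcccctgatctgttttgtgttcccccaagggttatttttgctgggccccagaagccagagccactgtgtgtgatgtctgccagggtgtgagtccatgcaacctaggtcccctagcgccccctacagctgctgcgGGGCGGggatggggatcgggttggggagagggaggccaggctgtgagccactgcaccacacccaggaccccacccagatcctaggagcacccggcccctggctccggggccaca
Itga1, chr13:115101965-115102214, - strand: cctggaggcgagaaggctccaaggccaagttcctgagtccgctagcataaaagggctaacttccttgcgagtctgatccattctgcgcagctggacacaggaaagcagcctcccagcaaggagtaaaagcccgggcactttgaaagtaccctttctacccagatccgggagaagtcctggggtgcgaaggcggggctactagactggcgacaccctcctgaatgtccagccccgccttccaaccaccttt
Itga5, chr15:103366792-103367041, - strand: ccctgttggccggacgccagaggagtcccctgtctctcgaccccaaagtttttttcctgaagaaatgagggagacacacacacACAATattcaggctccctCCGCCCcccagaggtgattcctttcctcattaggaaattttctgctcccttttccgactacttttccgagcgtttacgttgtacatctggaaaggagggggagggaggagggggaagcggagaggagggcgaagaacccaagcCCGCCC
Itgb1, chr8:128685404-128685653, + strand: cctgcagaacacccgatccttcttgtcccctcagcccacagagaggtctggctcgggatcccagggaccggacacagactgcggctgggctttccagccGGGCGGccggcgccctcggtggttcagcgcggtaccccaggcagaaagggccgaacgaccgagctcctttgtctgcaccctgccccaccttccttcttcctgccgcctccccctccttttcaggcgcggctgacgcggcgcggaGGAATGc
The motifs searched were a TEAD site (GGAATG), an AP-1 site (TGANTCA), a GC box (GGGCGG), a SOX core (ACAAT), the CArG box, an E-box (CACGTG) and an ETS site (CCGGAAG). Of 32851 RefSeq promoter windows of this length, 12.6% held the TEAD site, 6.75% the AP-1 site, 32.7% the GC box, 27.7% the SOX core, 1.47% the CArG box, 6.02% the E-box and 6.91% the ETS site. Counted back from the start site, Itga4 held a GC box at -114 to -109. Itga5 held GC boxes at -149 to -144 and -6 to -1, both on the opposite strand, and a SOX core at -167 to -163. Itgb1 held a GC box at -151 to -146 and a TEAD site at -7 to -2, and Itga1 held none of the 7. The windows of Itga4 and Itga1 thus shared no match. Their GC content was 64.0% and 57.6%, against 55.6% for Itga5, 68.0% for Itgb1 and a median of 52.4% over all windows.

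Itgb1 (ENSMUSG00000025809, chromosome 8, 128685654 to 128733200, + strand) is the common beta subunit and had the most counts of the members in every library. In deposited TPM it was below Itgav and Itga6 on day 2 (156 against 626 and 184). It had 5819, 2030, 3373, 4386 and 4038 normalized counts from day 0 to day 14. The lowest value was that of the day 2 library. The log2 change on day 2 was -1.52 (95% counting interval -1.61 to -1.43), and it kept its sign under every scaling. On days 5, 10 and 14 the changes were -0.79, -0.41 and -0.53, all within 2-fold. Their signs turned with the scaling, to 0.02, 0.66 and 0.28 with quantile normalization and, on days 10 and 14, to 0.77 and 0.35 with TPM. With total counts the change on day 10 was 0.06. Relative to the median of all tested genes, days 10 and 14 were -0.55 and -0.60 in normalized counts and -0.33 and -0.44 with TPM.

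Itgb3 (ENSMUSG00000020689, chromosome 11, 104608000 to 104670476, + strand), which pairs with Itgav to form a receptor for vitronectin and osteopontin, had 13, 188, 136, 83.4 and 30.9 expected counts from day 0 to day 14. The shallowest library thus held the most reads of this gene. The corresponding normalized counts were 12.9, 340, 119, 59.5 and 27.6. Itgb3 rose 24.6-fold by day 2 (log2 change 4.62, 3.92 to 5.66) and was still 8.65-fold, 4.37-fold and 2.07-fold above day 0 at the 3 later time points. Each step after day 2 went down, with log2 steps of -1.51, -0.99 and -1.08 whose counting intervals all lay below 0. The change on day 14 was no longer over 2-fold with quantile normalization (0.55), with a pseudocount of 5 (0.87) or relative to genes of its length (0.58). Itgb3 is also a platelet and megakaryocyte gene, and a list of 5 other markers of these cells summed to 53.2, 106, 31.7, 17.1 and 32.9 normalized counts from day 0 to day 14. Of the list, Itga2b had 20, 33, 26, 18.1 and 22 expected counts and was 2.92-fold above day 0 on day 2, the day on which Itgb3 was highest. Gp1bb had 27.8, 18.4, 5.19, 5.81 and 11.8, Pf4 and Ppbp had at most 6, and Gp9 had none in any library. The part of such cells in the values of Itgb3 was not tested.

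Among the subunits that bind the RGD motif, Itga5 (ENSMUSG00000000555, chromosome 15, 103344286 to 103366763, - strand), the fibronectin receptor subunit, had 1465, 1277, 1063, 546 and 783 normalized counts from day 0 to day 14. Values went down from day 0 to day 10 and were higher again on day 14. The log2 changes of the 4 later time points were -0.20 (-0.33 to -0.07), -0.46 (-0.57 to -0.35), -1.42 (-1.55 to -1.30) and -0.90 (-1.03 to -0.78). Only day 10 was called, and its change shrank to -0.25 with TPM, -0.92 with quantile normalization and -0.95 with total counts. The sign on day 5 turned with TPM (0.25) and with quantile normalization (0.01). Relative to the median of all tested genes, day 5 was -0.51 in normalized counts and -0.36 with TPM. Day 10 was -1.56 and -1.35 in the same terms. The step from day 10 to day 14 was 0.52 (0.38 to 0.66).

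Itgav (ENSMUSG00000027087, chromosome 2, 83724397 to 83806916, + strand), which also binds vitronectin and latent TGF-beta, had 762, 1009, 516, 1419 and 586 normalized counts from day 0 to day 14. It was highest on day 10, and no change from day 0 was over 2-fold (0.41, -0.56, 0.90 and -0.38). With TPM, which includes the change of its deposited length described below, it was over 2-fold below day 0 on days 5 and 14 (-1.13 and -1.09), and with quantile normalization and total counts over 2-fold above on day 10 (1.54 and 1.37). The steps between neighbouring time points were larger, with a rise of 1.46 (1.33 to 1.59) from day 5 to day 10 and a drop from day 10 to day 14, in which it fell by 1.27 on the log2 scale. On day 10 the sign against day 0 turned to -0.27 with TPM and to -0.14 relative to genes of its length. Itga8 (ENSMUSG00000026768, chromosome 2, 12106632 to 12301922, - strand), a nephronectin receptor subunit, had 50, 14, 84, 101 and 53.8 expected counts. Its lowest value was on day 2, where the log2 change was -0.94 (-1.94 to -0.09), and it rose 2.83-fold from day 2 to day 5. No change of Itga8 from day 0 was over 2-fold in normalized counts, whereas with TPM those of days 5 and 10 were (1.05 and 1.44), and its signs on days 10 and 14 (0.53 and -0.04) turned with the reference, to -0.29 relative to genes of its length on day 10 and to 0.67 with TPM on day 14.

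The laminin-binding subunits went in different directions. Itga7 (ENSMUSG00000025348, chromosome 10, 128933818 to 128958282, + strand), the laminin receptor subunit of muscle and of Schwann cells, had 47, 76, 126, 724 and 2156 expected counts from day 0 to day 14. Its normalized counts were 46.5, 137, 110, 517 and 1927, so most of the increase fell between days 5 and 14. The log2 change was 1.54 (1.02 to 2.12), 1.23 (0.75 to 1.76), 3.45 (3.05 to 3.93) and 5.34 (4.96 to 5.82) on the 4 later days. It was called on all 4 days under every scaling. Itga7 was the only member over 2-fold higher on day 14 than on day 10 (log2 step 1.90, 1.78 to 2.02), where 4.73% of all tested genes were. Its highest value was 41.4 times its lowest, the widest range of the 10 members.

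Itga6 (ENSMUSG00000027111, chromosome 2, 71745616 to 71858416, + strand), which pairs with Itgb1 or with Itgb4 of hemidesmosomes, had 276, 393, 500, 1349 and 462 normalized counts over the same time points. It went up at each step to day 10 and was lower on day 14. Against day 0 it rose 4.87-fold by day 10 (log2 change 2.28, 2.11 to 2.48), and the change on day 14 was 0.74 (0.53 to 0.96), within 2-fold but over it with total counts (1.10). From day 10 to day 14 it fell 2.91-fold. With TPM the changes on days 10 and 14 were 1.38 and 0.02, which includes the change of its deposited length described below.

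Itga3 (ENSMUSG00000001507, chromosome 11, 95044474 to 95076801, - strand), a receptor subunit for epithelial laminins, had 212, 136, 113, 98.5 and 36.6 normalized counts from day 0 to day 14. Each value was below the one before it, but the steps from day 2 to 5 (-0.26, -0.69 to 0.16) and day 5 to 10 (-0.19, -0.55 to 0.16) include no change. In TPM the values were 16.05, 8.55, 14.02, 16.69 and 5.1, higher on day 10 than on day 2. The log2 changes were -0.64 (-1.04 to -0.26), -0.90 (-1.23 to -0.59), -1.10 (-1.42 to -0.79) and -2.50 (-3.05 to -2.04). The fall by day 14 rested on 214 and 41 expected counts and was over 2-fold under every scaling, the smallest being -1.48 with TPM. The call on day 10 was lost with total counts (-0.63), and its sign turned with TPM (0.05). Relative to the median of all tested genes, day 10 was -1.24 in normalized counts and -1.04 with TPM. From day 10 to day 14 Itga3 fell 2.64-fold.

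The collagen receptor subunit Itga1 (ENSMUSG00000042284, chromosome 13, 114953096 to 115101964, - strand) had 15, 2, 37, 91 and 21 expected counts from day 0 to day 14. Counts of this size leave wide intervals. The log2 change on day 2 was -1.78, with an interval of -5.21 to 0.07 that includes no change, and it was -0.66 with TPM. Later changes were 1.07 (0.22 to 2.10), 2.06 (1.33 to 3.03) and 0.32. The call on day 5 was lost with a pseudocount of 5 and relative to genes of its length (0.77). The value of day 14 turned to -0.14 with quantile normalization.

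Itga4 (ENSMUSG00000027009, chromosome 2, 79255426 to 79333123, + strand), the VCAM1 receptor subunit of leukocytes and of migrating neural crest cells, had 25, 11.1, 126, 568 and 96.7 expected counts from day 0 to day 14. It was highest on day 10, in normalized counts 20.3 times its lowest value on day 2. Its log2 changes were -0.30 (-1.49 to 0.76), 2.11 (1.53 to 2.84), 3.98 (3.46 to 4.68) and 1.76 (1.16 to 2.51). The rise by day 10 was 15.8-fold, and the fall from day 10 to day 14 was 4.65-fold. Exons of Itga4 overlap those of Cerkl on the other strand, but Cerkl had at most 17 counts in a library. The genes that overlap exons of Itga7, Itga8 and Itgav had at most 2.

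In normalized counts 4 of 10 members and 26.4% of the tested genes had their highest value on day 10. In TPM Itgav was instead highest on day 2, and Itga3, Itga8 and Itgb1 were also highest on day 10. Between days 5 and 10, 4 of 10 members rose over 2-fold (12.8% of tested genes) and 0 fell (9.5%). Between days 10 and 14, 6 members fell over 2-fold (8.33% of tested genes) and 1 rose. The 6 were Itga1, Itga3, Itga4, Itga6, Itgav and Itgb3. Over 2-fold above day 0 on day 10 and then over 2-fold lower on day 14 were 4 members, Itga1, Itga4, Itga6 and Itgb3, against 4.92% of all tested genes. The median step of the members between days 10 and 14 was -1.18, and that of all tested genes was 0.02. The values for all tested genes cover all transcript lengths. Neither these steps nor the day of the highest value were set against genes of like length. Between days 2 and 5, 3 members rose (19.0%) and 1 fell (12.5%).

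Changes of all genes followed transcript length, and the members are long. The tested genes were split by transcript length into 10 classes of equal size, and the median log2 change on day 10 ran from -1.44 in the shortest class to 1.03 in the longest. The 10 members lay in classes 7 to 10. The medians of these classes were 0.39, 0.59, 0.82 and 1.03 on day 10 and 0.26, 0.32, 0.47 and 0.54 on day 14. Set against the median of its own class, the change on day 10 was 3.06 for Itga7, 2.95 for Itga4, 1.69 for Itga6, 1.30 for Itgb3 and 1.23 for Itga1, so these 5 stayed over 2-fold above. It was -0.14 for Itgav, -0.29 for Itga8, -0.80 for Itgb1, -1.68 for Itga3 and -2.01 for Itga5. On day 14 it was 5.08 for Itga7, 1.22 for Itga4, -1.22 for Itga5 and -2.82 for Itga3, and within 2-fold for the other members. What lies behind the trend with length was not tested.

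**Figure D3:**
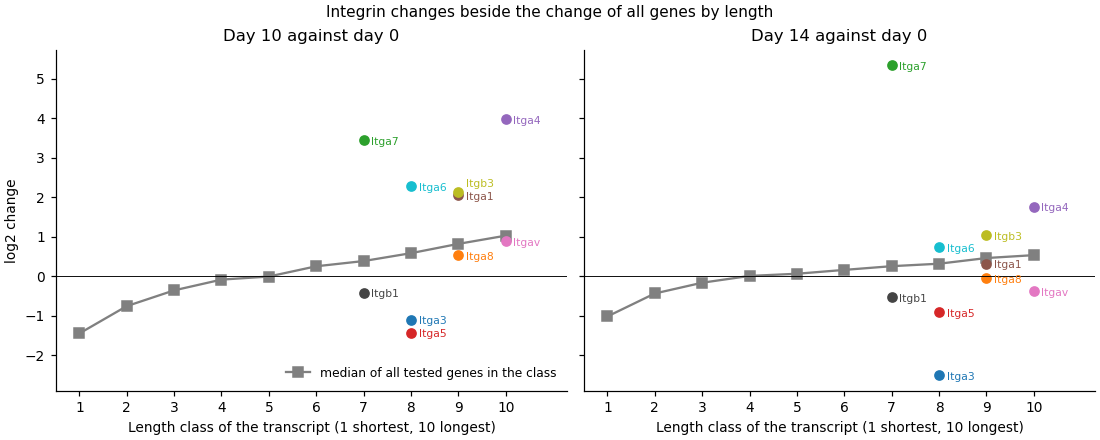
Log2 change of the 10 subunits (coloured points) on day 10 and day 14 against day 0, placed by length class of the transcript (x axis, 1 shortest to 10 longest), with the median of all tested genes in each class as grey squares. The grey line climbs with length, Itga7 and Itga4 lie above it on both days, and Itga3, Itga5 and Itgb1 lie below it.

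Levels of different subunits can be compared only per length. Here the deposited TPM values have a limit for 2 members. RSEM's deposited gene length, an average over transcripts weighted by their reads, ran from 519 to 4110 bases for Itgav and from 669 to 3169 bases for Itga6 between libraries, since reads were assigned in varying shares to short and long listed transcripts. The lengths of the other 8 members differed by at most 1.03-fold. A length that differed over 2-fold between libraries was found for 8.52% of the tested genes. A shorter length gives a higher TPM at the same count, so levels were also computed as counts per fixed length, with the deposited length where it was constant and otherwise the longest listed transcript, scaled to 1000000 per library. This second measure was chosen after the lengths had been seen.

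With counts per fixed length, Itgb1 led the 10 members in every library, at 680, 202, 629, 1112 and 853 per 1000000 from day 0 to day 14. Itga5 followed it on days 0, 2 and 5, Itga6 on day 10 and Itga7 on day 14. Of the 9 pairs of neighbours in the order, the counting interval of the ratio included 1 for 3 pairs on day 0 (Itga7 and Itga8, Itga4 and Itga1, Itga1 and Itgb3), for 3 pairs on each of days 2, 5 and 10 and for 4 pairs on day 14. Such neighbours do not differ beyond counting error. On day 10 they included Itga7 and Itga5 (ratio 1.03, 0.93 to 1.15), and on day 14 all pairs from Itga4 down through Itga8, Itga3 and Itgb3 to Itga1.

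The share of Itga7 among the alpha subunits grew in every measure, while the shares that Itga5 and Itgav lost depended on the measure of length. With counts per fixed length, Itga5 held 53.1%, 43.7%, 44.3%, 13.7% and 19.5% of the summed level of all 18 alpha subunits. Itga7 held 1.84%, 5.14%, 5.02%, 14.2% and 52.3%, and so led on day 14. Itga6 held 10.2% on day 0, 34.5% on day 10, where it led, and 11.7% on day 14. In deposited TPM the first place on day 0 went to Itgav with 52.6%, and Itga7 again led on day 14 with 40.5%. Itga5 held 18.7% on day 0, 26.9% on day 5 and 15.1% on day 14 in TPM. With counts divided by the mean deposited length of each gene, Itgav led on day 0 with 37.7%. By that measure Itga5 went from 32.8% on day 0 to 13.7% on day 14, and Itga7 from 1.14% to 36.9%. Itga7 thus went from below 2% to first place in each of these measures, while the order of Itgav, Itga5 and Itga6 depended on the measure of length. The ratio of Itga7 to Itga5, whose lengths were constant, started at 0.035 (0.025 to 0.046), was 0.117, 0.113 and 1.03 in the libraries between, and reached 2.69 (2.48 to 2.91) on day 14. This ratio within a library needs no scaling between libraries.

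**Figure D4:**
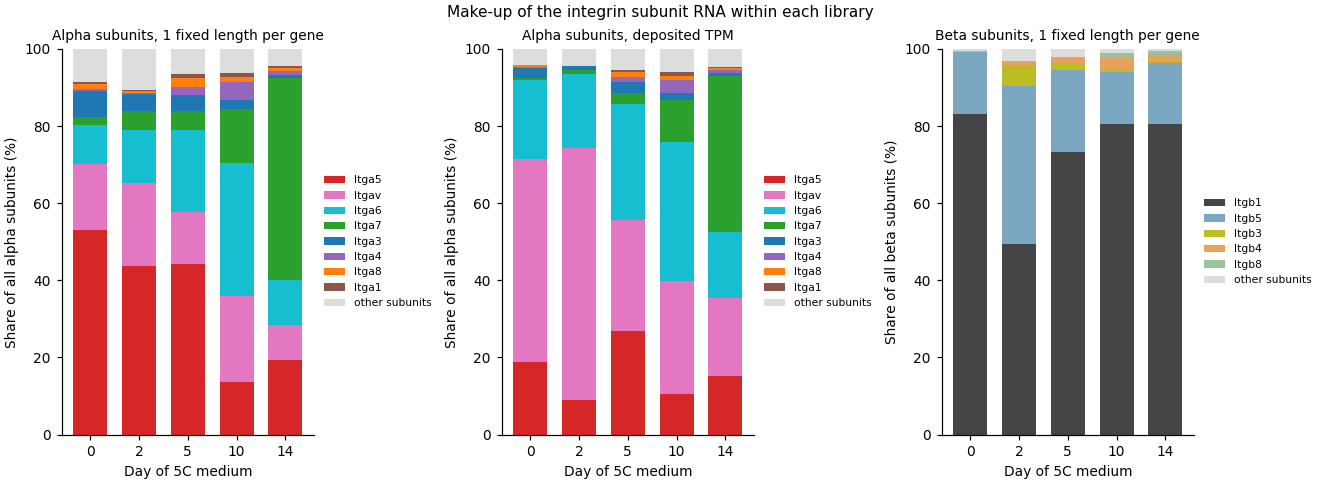
Share (%) of each subunit in the summed level of all 18 alpha subunits, as counts per fixed length (left) and as deposited TPM (middle), and of all 8 beta subunits as counts per fixed length (right), by day. Itga7 (green) grows to the largest share on day 14 in both alpha panels. On days 0 and 2 the largest share is that of Itgav (pink) in the TPM panel and of Itga5 in the fixed-length panel. Itgb5 (light blue) is widest on day 2.

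The sum of the laminin-binding subunits (Itga3, Itga6 and Itga7) over that of the RGD-binding subunits (Itga5, Itga8 and Itgav) was 0.330, 0.284, 0.624, 1.19 and 1.62 in deposited TPM from day 0 to day 14. With counts per fixed length it was 0.264, 0.349, 0.507, 1.37 and 2.20. In both measures the RGD-binding subunits were the larger class up to day 5 and the laminin-binding subunits on days 10 and 14. The laminin class was made up mainly of Itga6 on day 10 and of Itga7 on day 14.

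Among the 8 beta subunits, Itgb1 held 83.2%, 49.5%, 73.3%, 80.6% and 80.5% of the level per fixed length. The gap on day 2 was filled mainly by Itgb5, another partner of Itgav, with 41.0%, and by Itgb3 with 5.47%. The ratio of Itgb3 to Itgb1 per length was 0.0015 (0.0008 to 0.0025) at the start, reached 0.111 (0.094 to 0.129) on day 2 and was 0.0045 (0.0031 to 0.0064) in the last library, which still lay above the start. Deposited TPM gave shares of Itgb1 within 3 percentage points of these.

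The smallest root mean square difference over the 4 log2 changes among the members was that of Itga5 and Itgb1 (0.87), followed by Itga3 and Itga5 (0.87) and Itga8 and Itgb1 (0.90). Itga5 and Itgb1 still differed by up to 1.32 on a single day. Itga5 was lowest on day 10 and Itgb1 on day 2. All changes share the day 0 library, and 5 libraries are too few for a correlation.

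Of the 16 other integrin subunits, 12 passed the filter. On day 2, 6 of the 12 were over 2-fold above day 0 and 3 below, on day 5 these numbers were 5 and 3, and on days 10 and 14 they were 5 and 2. Of all tested genes 15.2%, 20.2%, 28.7% and 24.5% were over 2-fold above day 0 on the 4 days and 13.1%, 13.6%, 22.3% and 19.9% below. With TPM 4, 5, 5 and 5 of the 12 were above and 1, 0, 1 and 2 below. Itgb4, the hemidesmosome partner of Itga6, had 10, 30.3, 125, 362 and 142 expected counts from day 0 to day 14 and was 23.8-fold above day 0 on day 10 (log2 change 4.57, 3.81 to 5.78). Its highest value thus fell on day 10, as did that of Itga6. Itgb8, which pairs with Itgav and activates TGF-beta, had 9, 1, 31, 256 and 128 expected counts. Itga2, a second collagen receptor subunit, had 0, 4, 1, 99 and 12, which on day 10 was at least 23.8-fold higher than the 3 counts that a library at 0 allows.

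Itgb5, the second most abundant beta subunit, had 961, 1447, 835, 624 and 692 normalized counts and was within 2-fold of day 0 throughout. Itga11, a collagen receptor subunit of fibroblasts, had 113, 16.3, 32.4, 83.5 and 93.0 and was lowest on day 2, as Itgb1 was. The leukocyte subunits differed among themselves. Itgam had 62.5, 97.9, 20.1, 9.53 and 8.06 expected counts and Itgb7 had 29, 52, 10, 1 and 0, both highest on day 2. Itgb2, the partner of Itgam and Itgax, had 2, 0, 76, 53 and 25, and Itgax had 0, 2, 23.9, 20.2 and 6. Itga2b had between 18 and 33 expected counts, Itga9 between 25 and 75 and Itga10 between 13 and 36. Itgad, Itgae, Itgal and Itgb6 had at most 8.

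**Figure D5:**
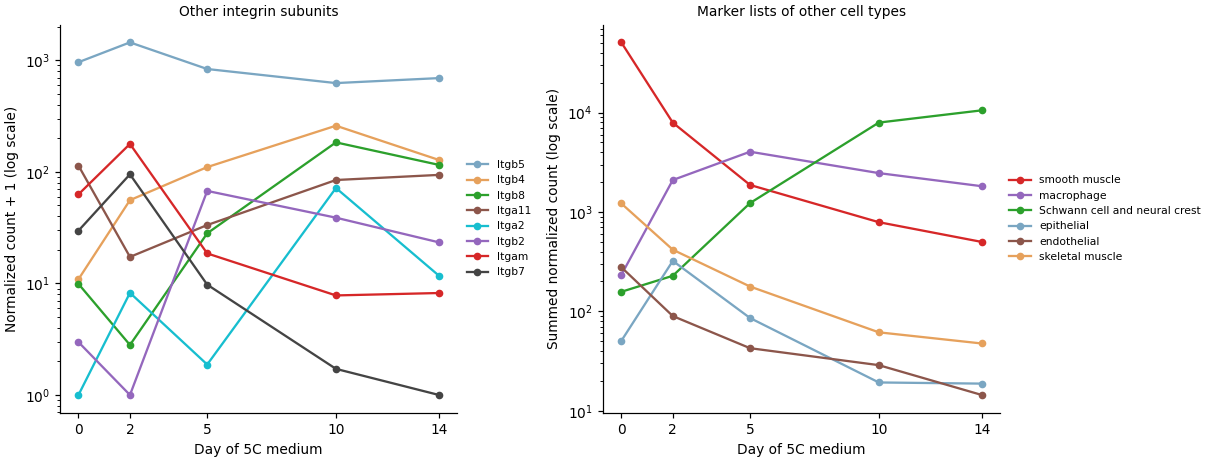
Left, normalized counts plus 1 (log axis) of 8 other integrin subunits by day. Right, summed normalized counts (log axis) of marker lists of 6 cell types by day, in which the Schwann cell and neural crest list climbs from 157 to 10526 while the smooth muscle list drops from 50793 to 500.

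Markers of other cell types moved at the same time points. All 10 genes of a Schwann cell and neural crest list were over 2-fold above day 0 on days 10 and 14, and their summed normalized count was 157, 228, 1228, 7926 and 10526 from day 0 to day 14. Sox10, a defining transcription factor of these cells, had 7, 12, 320, 1478 and 2230 expected counts. Itga7, like the list, was highest on day 14, whereas Itga6, Itga4, Itgb4 and Itgb8 were highest on day 10 and lower on day 14. Before plating, the study had used a short trypsin step to take off loosely attached cells that might turn into neurons. Whether cells with these markers have a part in the changes of the subunits was not tested.

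The macrophage list summed to 232, 2095, 4036, 2460 and 1816 normalized counts, with 12 of 12 genes over 2-fold above day 0 on days 2 and 5, 11 on day 10 and 10 on day 14. Ptprc, a defining leukocyte marker, had 0, 1, 8, 22 and 4 expected counts. Itga4, Itgb3, Itgav, Itgam, Itgb2 and Itgax are known from macrophages. Of these, Itgam was over 2-fold below day 0 on days 5, 10 and 14 (log2 changes -1.76, -3.01 and -2.94). The part of such cells in the values of these subunits was not tested. The smooth muscle list summed to 50793, 7913, 1869, 789 and 500. Itga3, Itga5 and Itgb1 were highest on day 0 too in normalized counts, but none of them was in TPM. The part of smooth muscle cells in their values was not tested.

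The skeletal muscle list summed to 1218, 417, 178, 61.6 and 47.5, with all 5 tested genes over 2-fold below day 0 from day 5 on. Its defining markers Myod1 and Ckm had at most 1 expected count in any library. The endothelial list summed to 278, 89.8, 42.6, 28.8 and 14.4 normalized counts. Most of its day 0 value came from Kdr, which had 238, 2, 6, 9 and 4 expected counts, while Pecam1 had at most 2.63 and Cdh5 at most 5. The epithelial list summed to 50.5, 322, 85.8, 19.3 and 18.8, with 2 of 3 tested genes over 2-fold above day 0 on day 2. In it the keratin gene Krt18 had 31, 162, 75, 14 and 5 expected counts and Epcam had 0, 1, 4, 5 and 8, while Cdh1 had at most 2 and Ocln was at 0 in every library. The neuron list summed to 682, 385, 312, 278 and 385, and on each of days 5, 10 and 14 it had 3 of 6 tested genes over 2-fold above day 0 and 3 below. The neurofilament gene Nefl had 1.67, 12, 83, 25 and 5 expected counts and Stmn2 had 453, 146, 71, 100 and 182, while Dcx had at most 1 and Rbfox3 was at 0 in every library. The part of these cell types in the values of the subunits was not tested.

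Genes that act with integrins were described by lists. The counts of each list stand beside 15.2%, 20.2%, 28.7% and 24.5% of all tested genes above day 0 on days 2, 5, 10 and 14 and 13.1%, 13.6%, 22.3% and 19.9% below, and its medians beside -0.03, 0.05, 0.14 and 0.07, or -0.20, 0.61, 1.09 and 0.78 with TPM. The integrin activation list (talins, kindlins, Rap1 and their inhibitors) had 11 of 12 genes tested, of which 1 was over 2-fold above day 0 on each of the 4 days and 3, 3, 4 and 3 below. Its median log2 change was -0.53, -0.56, -0.56 and -0.42 on days 2, 5, 10 and 14, but the sign turned with TPM on the last 3 days, with -0.83, 0.15, 0.60 and 0.31. The 3 named genes were all called below day 0 on day 14 in normalized counts. Flna, the actin crosslinker filamin that competes with talin, had 9216, 6972, 2495, 3596 and 3447 normalized counts. In TPM Flna turned, from 733 on day 0 to 876 on day 14, and its deposited length went from 4420 to 2549 bases. Itgb1bp1, an inhibitor that binds the Itgb1 tail, fell 2.40-fold by day 2 and was 2.70-fold below day 0 on day 14, where its TPM values of 208 and 110 were within 2-fold. Dok1, another tail-binding inhibitor, was 3.59-fold below on day 14.

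The focal adhesion linkage list, which holds the proteins between integrin tails and actin, had 20 genes tested. Of these 3, 3, 3 and 2 were over 2-fold above day 0 and 6, 10, 7 and 8 below on days 2, 5, 10 and 14, with medians of -0.60, -0.91, -0.94 and -0.72. With TPM the medians were -0.82, -0.29, 0.15 and 0.03, so the sign turned on days 10 and 14, where 7 and 6 genes were above and 3 below. The named genes were Actn1, Pdlim7 and Lims2. Actn1, the alpha-actinin of stress fibres, went from 3101 normalized counts on day 0 to 1076, 707, 374 and 238 and fell by 3.70 on the log2 scale by day 14. Pdlim7 fell 7.71-fold by day 10. Lims2, a PINCH adaptor of integrin-linked kinase, had 223, 23.5, 43.1, 114 and 378, and so was lowest on day 2 like Itgb1.

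The integrin signalling list had 16 genes tested, with 2, 3, 3 and 3 over 2-fold above day 0 and 3, 1, 1 and 1 below, and medians of -0.35, 0.01, 0.26 and 0.15 (with TPM -0.57, 0.62, 1.30 and 0.92). Crkl, an adaptor downstream of the focal adhesion kinase, rose 9.09-fold by day 10, from 16 to 213 expected counts. Nedd9, a docking protein of the same pathway, had 111, 8, 27, 43 and 25 expected counts and was 4.75-fold below day 0 on day 14. Ptk2b, the relative of the focal adhesion kinase found in leukocytes and neurons, rose 4.66-fold by day 5 and was within 2-fold of day 0 on days 10 and 14, though not in TPM on day 10 (8.89 and 20.1). The membrane partners list (tetraspanins and other binders, 9 tested) had 1, 1, 1 and 2 genes above and 2, 1, 4 and 2 below, with medians of -0.25, 0.13, 0.24 and 0.29 (with TPM -0.49, 0.77, 0.56 and 1.02). In it, Cav1 fell 10.0-fold by day 14, Slc3a2, the CD98 chain that binds beta tails, fell 2.50-fold by day 2, and the tetraspanin gene Cd82 rose 4.76-fold by day 14.

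The list of integrin ligands had all 24 genes tested, with 3, 5, 11 and 7 over 2-fold above day 0 and 10, 4, 4 and 4 below on days 2, 5, 10 and 14. The medians were -0.79, 0.21, 0.89 and 0.63, and with TPM -1.21, 0.75, 1.76 and 1.18. Spp1, the gene of osteopontin, a ligand of Itgav with Itgb3, had 309, 17547, 41767, 7994 and 4055 normalized counts, and was 56.7-fold above day 0 on day 2 and 135-fold on day 5. Its rise by day 2 fell on the same step as that of Itgb3, and its highest value came 1 time point later. Ccn2, a matricellular ligand, had 5009, 429, 214, 129 and 157, and Thbs1, the gene of thrombospondin, had 8138, 944, 723, 1137 and 856. With TPM on day 10, each of these 5 lists had more genes above day 0 and fewer below than in normalized counts.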

How the data were processed

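RNA of 5 MEF libraries, 1 per time point, was grouped by the day given in the labels. The authors aligned the reads with Bowtie and counted them with RSEM on mm10, per the submitters' processing notes, with versions, annotation and filters not given in the sources used here. The authors deposited expected counts, which RSEM may split between transcripts of a gene, TPM values, which were divided by an estimated gene length, and FPKM values, which were not used. Strand was not stated for the counting, so overlapping genes on opposite strands may share reads.

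Expected counts were rounded to compute TMM library sizes (edgeR 4.0.16, R 4.3.3) and scaled to the geometric mean of the 5 libraries. Symbols and coordinates came from GENCODE M21 (27247 of 27729 genes matched). The tested genes reached 10 expected counts in at least 1 library, a pseudocount of 1 was added, and changes over 2-fold were called. Shares of 3 counts were 0.771 to 1.33 per 1000000. The scripts were tested on simulated counts (Python 3.11.15, numpy 2.4.6, pandas 2.3.3, scipy 1.17.1, matplotlib 3.10.9). The members and the lists were chosen with earlier results of these data known. All 10 members, all 16 other subunits and, from each other list, the 3 genes with the largest change among those with 100 or more counts in a library are named, and marker genes only as counts and defining markers, except Kdr, Krt18, Nefl and Stmn2, which were chosen after their values were seen. The alternatives were DESeq2 1.42.0 size factors, TPM, quantile and total-count scaling, library sizes without Gm42418 and Lars2, genes of like length, pseudocounts, thresholds and filters. Library sizes without the day 2 library and counts per fixed length were added after the data were seen.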

Additional observations from a re-analysis of the deposited data

How the results depend on the processing

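With 1 library per time point no replicate could be left out, and no paired analysis was possible because each time point has a single library. Of the 19 called values of members, 19 kept their sign and stayed over 2-fold with DESeq2 size factors, without a pseudocount and without Gm42418 and Lars2, and 15 of 15 did without the day 2 library, which was chosen after seeing the data. With TPM 18 kept their sign and 16 their call, with quantile normalization 19 and 16, and with total counts, a pseudocount of 5 or genes of like length 19 and 17. The value that turned was Itga3 on day 10 (0.053 with TPM). Relative to the median of all tested genes it was -1.24 in normalized counts and -1.04 with TPM. Median shifts of all tested genes against the normalized counts were -0.17, 0.56, 0.95 and 0.72 with TPM, -0.08, 0.37, 0.46 and 0.35 with total counts and -0.13 and -0.11 on days 10 and 14 with quantile normalization.

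Fewer members were called at 4-fold, namely 1 above and 0 below on day 2, 2 above on day 5, 0 below on day 10 and 1 above on day 14. With TPM the numbers below were 1, 1, 0 and 2. On day 2, 1 was below when the counting interval had to exclude no change or every library had to hold 10 counts. On day 10, 1 was below with quantile normalization and 0 with total counts, and relative to genes of like length 1 was below on day 5 and 2 on day 14. The laminin to RGD ratios moved by less than 1.5 times with the fixed length.

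With TPM the other subunits had 1, 0 and 1 below on days 2, 5 and 10. Integrin activation had 4 above on day 10 and 2 on day 14, with 0, 1 and 0 below on days 5, 10 and 14. Focal adhesion linkage had 1, 7 and 6 above on days 2, 10 and 14 and 3 below on each of days 5, 10 and 14. Integrin signalling had 5, 10 and 7 above on days 5, 10 and 14 and 0 below on day 10. Membrane partners had 0, 3, 4 and 5 above on days 2 to 14 and 1 below on days 10 and 14. The ligands had 1, 8, 17 and 13 above. The cause of these differences was not tested.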
